A study of Mus musculus with 2 samples.

Results

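The 10 genes described here encode proteins of heterochromatin and of the nuclear lamina, and they were chosen by name: Lbr, Lmna, Lmnb1, Ehmt1, Ehmt2, Setdb1, Cbx1, Cbx5, Kdm1a and Hmgb1. All 10 were found among the 21544 protein-coding genes of GENCODE M21 that start between the first and the last boundary of their chromosome. The measurements are the 7435 chromatin boundaries that the authors called by in situ Hi-C, a method that ligates and sequences DNA ends lying close together in the nucleus. The cells were mature olfactory sensory neurons expressing the receptor gene Olfr16, from the olfactory epithelium. They were sorted by fluorescence from MOR23-GFP mice, which were adult and of mixed sex, with no treatment given in the labels and the strain not specified. There were 2 biological replicates of 1 group, of 28000 and 24400 cells, fixed with 1% formaldehyde and cut with DpnII, and the authors called boundaries on both replicates combined. Each boundary is a 5 kb interval of GRCm38 with a class, Strong or Weak, and a deposited strength score, which ran from 0.2 to 4.38 with a median of 0.520. The list has 1 value per boundary, so no replicate spread or read depth can be given, and it carries no expression, so neither the identity of the cells nor the activity of the genes could be checked in it.

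Heterochromatin is the compact, silent form of chromatin. Methyltransferases place repressive methyl marks on the tails of histone H3, HP1 proteins bind these marks, and lamins and the lamin B receptor hold silent chromatin at the nuclear envelope. In olfactory sensory neurons the receptor genes are covered by such marks and gather in compact foci away from the envelope, and each neuron relieves this silencing at a single receptor allele. A chromatin boundary separates neighbouring stretches of chromosome that each have many internal contacts. The values below give the position of the genes for this machinery among the boundaries of these neurons.

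Ehmt1 and Hmgb1 were annotated as starting inside a boundary, and the starts of the other 8 genes lay 32.2 to 83.5 kb from the nearest one. Starts were taken at the 5′ end of each GENCODE gene, and the distance was counted to the edge of the boundary interval. Within 10 kb of a boundary there were thus 2 of 10 starts, against 12.5% of all protein-coding starts, and the same 2 lay inside a boundary, against 3.29%. The count was still 2 within 25 kb, where the share of all starts was 24.8%, and rose to 7 within 50 kb, where it was 44.3%. The median distance was 41.0 kb for the 10 genes (quartiles 32.2 and 61.4 kb) and 57.8 kb for all protein-coding genes (25.4 and 106.0 kb). The nearest boundary was Strong for 8 of 10 genes, against 62.9% of all protein-coding starts, and its median score was 1.06 against 0.668. Within 10 kb of a Strong boundary there was 1 start, that of Ehmt1, against 7.94%. These counts and medians are a description of a short list chosen by name, and no test was run on them.

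**Figure D1:**
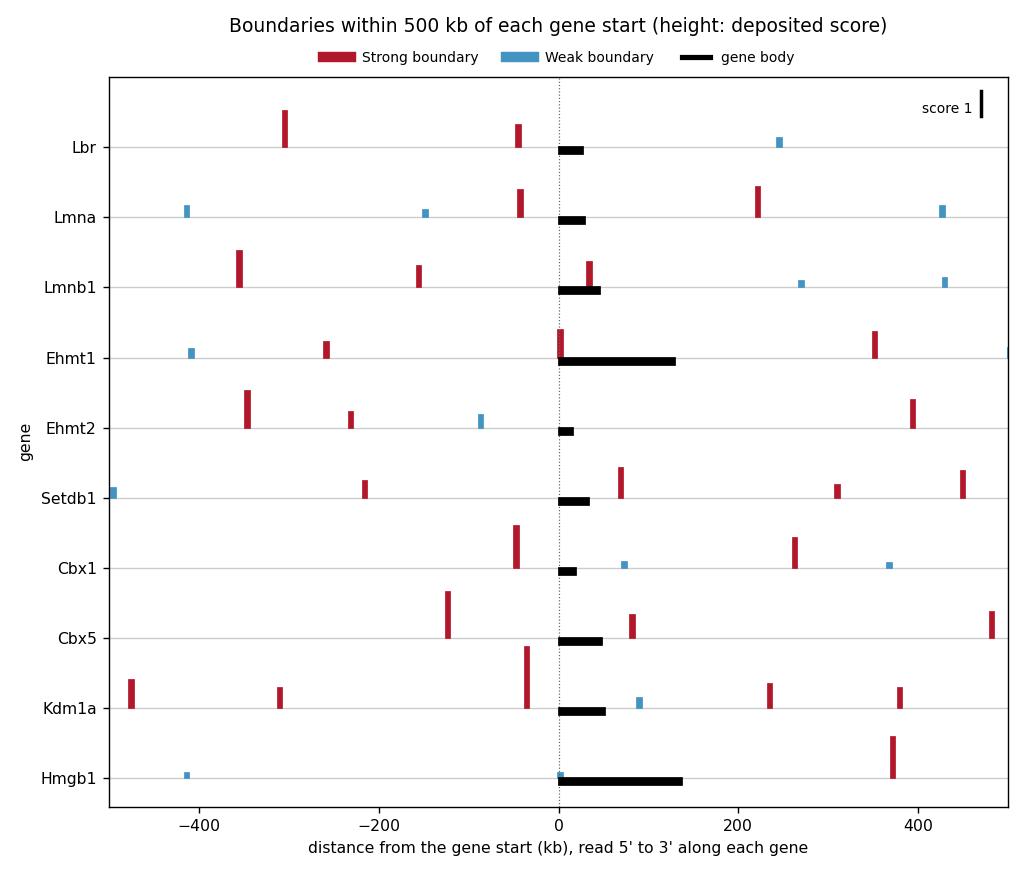
Boundaries within 500 kb of each gene start, with the distance from the start in kb on the horizontal axis, read 5′ to 3′ along the gene, and 1 line per gene. Coloured bars are boundaries (height: deposited score, red Strong, blue Weak) and black bars are gene bodies. The starts of Ehmt1 and Hmgb1 lie in a boundary, the body of Lmnb1 is crossed by one away from its start, and the tallest bar belongs to the boundary 32.3 kb upstream of Kdm1a.

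**Figure D2:**
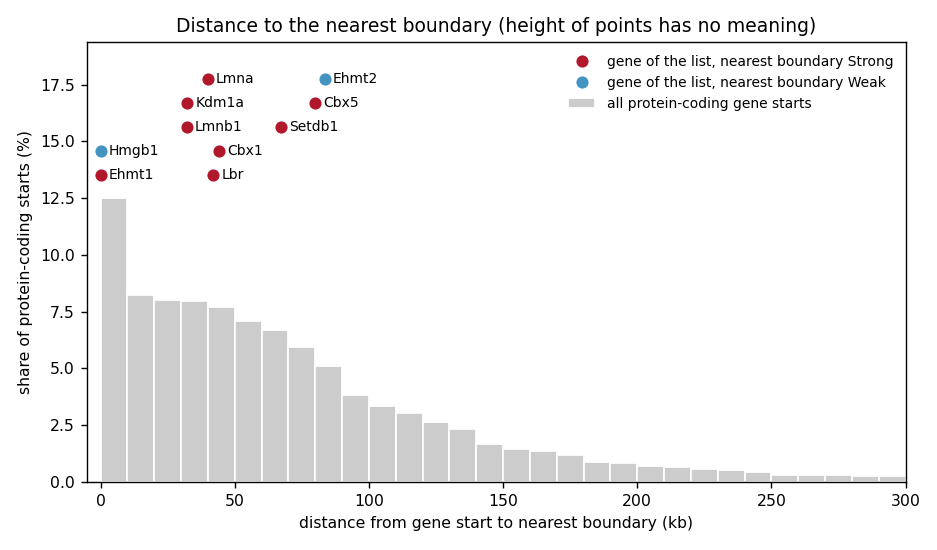
Grey bars give the share of protein-coding gene starts (vertical axis, %) in 10 kb steps of distance to the nearest boundary (horizontal axis, kb, shown to 300 kb). The points above the bars mark the 10 genes, coloured by the class of the nearest boundary, and their height has no meaning. No gene of the list lies between the 2 starts inside a boundary and Lmnb1 at 32.2 kb.

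Ehmt1 and Ehmt2 encode the paired methyltransferases GLP and G9a, which act as 1 complex, and the genes lay in very different surroundings. Ehmt1 (chr2:24789928-24919614, - strand, 129.7 kb long) started inside a Strong boundary at chr2:24915001-24920000, which covers an exon with untranslated sequence of the gene. That boundary scored 1.09, at or above 79.5% of the list. No other coding gene started within 10 kb of this boundary. On the side of the gene body the next boundary was Strong (chr2:24565001-24570000, score 1.01), and the 345.0 kb between them held the start of 1 other coding gene, Cacna1b, which encodes a neuronal calcium channel. On the upstream side lay an interval of 255.0 kb with 8 coding starts, the nearest that of Arrdc1 at 15.6 kb from the start of Ehmt1, and it ended at a Strong boundary scored 0.609 with the start of Nrarp within 10 kb. The boundary at the start of Ehmt1 thus stood between the interval of the gene body, with 1 other coding start, and one with 8. With the start of Ehmt1 counted, the first held 2, and the median of all intervals was 2.0. Of 18 annotated transcripts of Ehmt1, 9 started inside the boundary, as did 7 of its 11 coding transcripts and its RefSeq start, and the other starts lay 23.3 to 109.0 kb away within the gene.

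The start of Ehmt1 and the competing starts of Hmgb1 are shown because they decide the 2 starts counted inside boundaries. Each line gives 250 bases before to 50 bases from the start, read 5′ to 3′ on the - strand, with CG pairs in capitals. The first 2 sequences were read from GRCm38.p6 at the GENCODE starts and lie at chr2:24919565-24919864 and chr5:149184440-149184739, and the third is a RefSeq promoter of the same build at chr5:149053008-149053307.
Ehmt1 start inside its boundary: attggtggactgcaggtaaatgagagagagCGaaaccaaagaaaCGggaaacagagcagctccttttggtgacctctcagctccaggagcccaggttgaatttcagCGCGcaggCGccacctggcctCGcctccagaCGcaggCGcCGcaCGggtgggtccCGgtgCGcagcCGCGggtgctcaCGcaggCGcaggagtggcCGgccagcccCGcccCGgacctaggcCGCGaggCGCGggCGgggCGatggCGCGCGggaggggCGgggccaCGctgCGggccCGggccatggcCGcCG
Hmgb1 GENCODE start inside its boundary: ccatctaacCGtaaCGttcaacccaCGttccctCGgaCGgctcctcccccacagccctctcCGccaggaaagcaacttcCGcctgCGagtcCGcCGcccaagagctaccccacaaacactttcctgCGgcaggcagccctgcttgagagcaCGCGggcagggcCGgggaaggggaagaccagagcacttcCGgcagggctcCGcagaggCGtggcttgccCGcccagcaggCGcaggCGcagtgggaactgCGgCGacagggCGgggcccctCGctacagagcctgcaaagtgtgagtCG
Hmgb1 RefSeq start: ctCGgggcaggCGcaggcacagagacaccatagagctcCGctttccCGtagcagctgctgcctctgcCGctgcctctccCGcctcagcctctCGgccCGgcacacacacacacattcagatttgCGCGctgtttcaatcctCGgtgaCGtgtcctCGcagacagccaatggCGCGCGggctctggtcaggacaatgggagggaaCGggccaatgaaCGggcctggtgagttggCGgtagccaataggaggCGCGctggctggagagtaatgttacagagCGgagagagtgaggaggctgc

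All 3 held more CG pairs than the median of 19899 RefSeq promoters of coding genes, with 34, 25 and 22 against 14.0. As many or more were found in 10.5, 25.7 and 32.6% of these promoters, in the same order. The GC content of the 3 sequences was 71.7, 67.7 and 63.0%, against a median of 57.0%. The GC box GGGCGG, searched on both strands, was found 3 times in the Ehmt1 sequence and 3 times in the first Hmgb1 sequence but 0 times in the RefSeq start of Hmgb1 shown, and 48.1% of the RefSeq promoters hold it. The CCAAT motif, on both strands, was found 1, 0 and 3 times in the same order, and 38.0% of the promoters hold it. The match of Ehmt1 is at the very first bases shown, and its RefSeq promoter, a few bases downstream, held CCAAT 0 times. TATAAA was found in none of the 3, and 12.2% of the promoters hold it on either strand. The other RefSeq start of Hmgb1, not shown, held the GC box 4 times and CCAAT 0 times, so the RefSeq starts of this gene differ from each other in both motifs. Among the RefSeq promoters of 9 of the 10 genes, CG pairs ranged from 1 at a start of Lmna to 45 at a second start of Hmgb1.

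Hmgb1 encodes an abundant DNA-bending protein of chromatin, of the HMG box family. The GENCODE gene (chr5:149046702-149184489, - strand) is 137.8 kb long, and its 5′ end lay in a Weak boundary at chr5:149180001-149185000 with a score of 0.232, at or above only 9.31% of the list. This start belongs to 1 of 10 annotated transcripts. The other 9 transcripts, 6 of them coding, started 126.0 to 130.0 kb from the nearest boundary, and the 2 RefSeq starts 127.0 and 128.0 kb. With the RefSeq starts, Hmgb1 was not near a boundary. The boundary also holds the start of Uspl1, a SUMO peptidase gene on the other strand, and the 5′ ends of Uspl1 and of the long Hmgb1 transcript overlap by 140 bases. The nearest Strong boundary to the GENCODE start was 369.0 kb away (chr5:148810001-148815000, score 1.65). The interval of 365.0 kb that holds the gene body also held the starts of Katnal1, a subunit gene of the microtubule-severing enzyme katanin, and of Gm42791. The upstream interval was 410.0 kb long, held the starts of Alox5ap, Medag, Tex26 and Wdr95, and ended at a Weak boundary scored 0.208 in Wdr95.

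**Figure D3:**
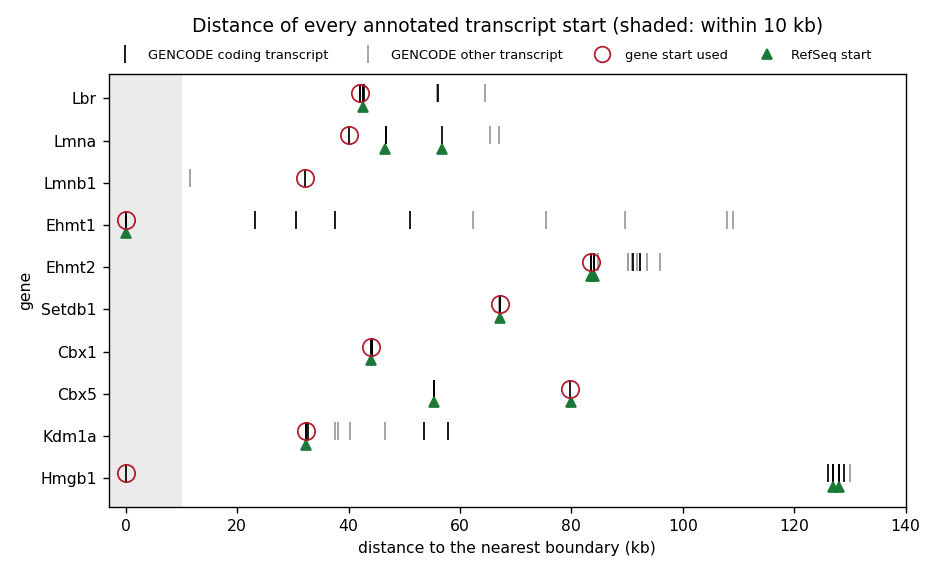
Distance of each annotated transcript start to the nearest boundary (horizontal axis, kb), with 1 line per gene. Black ticks are coding transcripts, grey ticks other transcripts, red circles the gene start used and green triangles RefSeq starts, and the shaded band is within 10 kb. The Hmgb1 start in the band is a single transcript, and the other 9 lie at 126.0 kb or more.

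The choice of start moved few other members. Counted by the nearest start of any transcript, 2 of 10 genes were within 10 kb, against 16.7% of all protein-coding genes. By the nearest RefSeq start this was 1 of 9 genes, Ehmt1, against 12.8% of 16324 genes. Of the 4 transcripts of Cbx5, all coding, 1 started at the gene start, 79.8 kb from a boundary, and the others at 55.3 to 55.4 kb. Its 2 RefSeq starts lay 55.4 and 79.9 kb away. A noncoding transcript of Lmnb1 started 11.6 kb from one, against 32.2 kb for its coding transcript. The RefSeq starts of Lmna lay 46.6 and 56.7 kb from a boundary, against 40.0 kb for the GENCODE start.

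Ehmt2 (chr17:34898469-34914052, + strand, 15.58 kb long) started farthest from a boundary of the 10 genes. The nearest, at chr17:34810001-34815000, lay 83.5 kb upstream and was Weak with a score of 0.489. It overlaps an exon of the noncoding gene model C4a, and the start of Cyp21a1, a steroid hydroxylase gene, lies within 10 kb of it. The nearest Strong boundary was 228.0 kb away on the same side, and the boundary downstream of the gene, 391.5 kb away, was Strong with a score of 1.09 and overlaps no annotated gene. The interval around Ehmt2 was 475.0 kb long, longer than or equal to 82.1% of the 7415 intervals between adjacent boundaries, and held 46 coding starts. Of all intervals, 9 held at least 46, this one included, and the fullest held 88. Its start lay 0.204 kb from that of the complement gene C2, on the other strand, and 16.0 kb from that of Slc44a4, a choline transporter-like gene. Setdb1 (chr3:95323525-95357202, - strand), a methyltransferase that silences repeats and genes with its own cofactors, started 67.2 kb from a Strong boundary scored 1.20. This boundary (chr3:95285001-95290000) lies beyond the 3′ end of the gene, in an exon with untranslated sequence of the deubiquitinase gene Mindy1, and had the starts of Mindy1 and Prune1 within 10 kb. On the upstream side, 212.8 kb away, was a Strong boundary scored 0.676 in an exon of Hormad1, a meiosis gene. The 280.0 kb between them held 8 coding starts, and the nearest to Setdb1 were those of Cers2, a ceramide synthase gene, at 42.4 kb and 4930558C23Rik at 45.6 kb. The 3′ ends of Setdb1 and Cers2 overlap by 75 bases.

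The 3 lamina genes had similar distances, from 32.2 to 42.0 kb, each to a Strong boundary. Lbr encodes the lamin B receptor, an inner nuclear membrane protein that holds heterochromatin at the envelope. Lbr (chr1:181815335-181843046, - strand) started 42.0 kb from a Strong boundary upstream (chr1:181885001-181890000, score 0.892) that overlaps no annotated gene. On the other side, 243.0 kb away, lay a Weak boundary scored 0.374 in an exon of Dnah14, a dynein heavy chain gene. Lbr was the only coding gene to start in this interval of 285.0 kb. Of the coding starts between boundaries, 8.85% were alone in their interval, and 24.9% of intervals held exactly 1 coding start. Its nearest coding starts, those of the actin regulator gene Enah at 177.0 kb and Dnah14 at 266.0 kb, lay on the far sides of these boundaries, and the 3′ ends of Lbr and Dnah14 overlap by 440 bases.

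Lmna, the gene of the A-type lamins (chr3:88480147-88509956, - strand), lay in a gene-dense interval of 260.0 kb with 15 coding starts, and 150 of 7415 intervals held as many or more. The boundary 40.0 kb upstream was Strong (chr3:88550001-88555000, score 1.10) and holds the starts of Lamtor2 and Ubqln4, with that of Rab25 within 10 kb. These encode a subunit of a lysosomal signalling scaffold, a ubiquilin and a small GTPase. The boundary on the other side, 220.0 kb away, was also Strong (score 1.20), holds the start of Gm38392 and has those of Tsacc and the chaperonin gene Cct3 within 10 kb. The coding starts next to Lmna were those of Mex3a, which encodes an RNA-binding protein, at 22.4 kb and of the semaphorin gene Sema4a at 48.8 kb, both in the same interval.

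Lmnb1, which encodes lamin B1 (chr18:56707813-56753424, + strand, 45.61 kb long), was the only one of the 10 genes with a boundary in its body away from its annotated start. This boundary was Strong (chr18:56740001-56745000, score 1.02), lay 32.2 kb downstream of the start and 8.42 kb from the 3′ end, and overlaps an exon of the gene. The start of Lmnb1 therefore shared an interval of 185.0 kb with those of Phax, Aldh7a1 and Tex43, and its 3′ end lay in the next interval. The other edge of the first interval was a Strong boundary scored 0.863, 152.8 kb upstream, in an exon of Aldh7a1, an aldehyde dehydrogenase gene, with the start of Phax, an RNA export factor gene, within 10 kb. The nearest coding start on the far side of the gene was that of March3, at 218.0 kb. Gene bodies overlapped a boundary in 3 of 10 cases, Ehmt1, Hmgb1 and Lmnb1, against 15.5% of all protein-coding genes. For Hmgb1 the overlap rests on the long transcript alone. The 10 genes were also longer, with a median of 39.6 kb against 17.6 kb, and gene length was not taken into account.

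The HP1 genes Cbx1 and Cbx5, whose proteins HP1 beta and HP1 alpha bind methylated histone H3, had Strong boundaries of high score on their upstream sides. Cbx1 (chr11:96789127-96808640, + strand) started 44.1 kb from a boundary at chr11:96740001-96745000 with a score of 1.67, at or above 92.6% of the list, in an intron of Skap1, an adaptor protein gene of T cells. The boundary on the other side was Weak (score 0.249) and lay 70.87 kb away in an exon with untranslated sequence of Copz2. The 115.0 kb between them made the shortest interval of the 10, and only 4.9% of all intervals were as short. It held 4 coding starts, those of Cbx1, the sorting nexin gene Snx11 at 11.6 kb, the transcription factor gene Nfe2l1 at 40.8 kb and the coatomer gene Copz2 at 60.7 kb. Cbx5 (chr15:103191544-103239816, - strand) started 79.8 kb from a Strong boundary beyond its 3′ end (chr15:103155001-103160000, score 0.943). That boundary lies in Smug1, a DNA glycosylase gene, whose start was within 10 kb of it. On the upstream side, 120.2 kb away, was a Strong boundary scored 1.86, at or above 94.8% of the list, in an intron of the integrin gene Itga5, whose start was also within 10 kb. The interval was 200.0 kb long with 7 coding starts. The start of Cbx5 lay 0.616 kb from that of Hnrnpa1, an RNA-binding protein gene on the other strand.

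Kdm1a encodes the histone demethylase LSD1, which is present only transiently during receptor choice. It had the boundary of highest score next to it among the 10 genes. That Strong boundary (chr4:136635001-136640000) scored 2.46 and ranked 86 of 7435 from the top. It lay 32.3 kb upstream of Kdm1a (chr4:136550540-136602723, - strand), in an exon with untranslated sequence of Lactbl1, and no coding start lay within 10 kb of it. The boundary on the other side was Weak (score 0.406) and lay 87.72 kb away in an intron of Luzp1, whose 3′ end overlaps that of Kdm1a by 4241 bases. The interval between them was 120.0 kb long, and 6.24% of intervals were as short or shorter. It held the starts of Kdm1a, of Tex46 at 7.71 kb and of Lactbl1 at 19.9 kb.

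**Figure D4:**
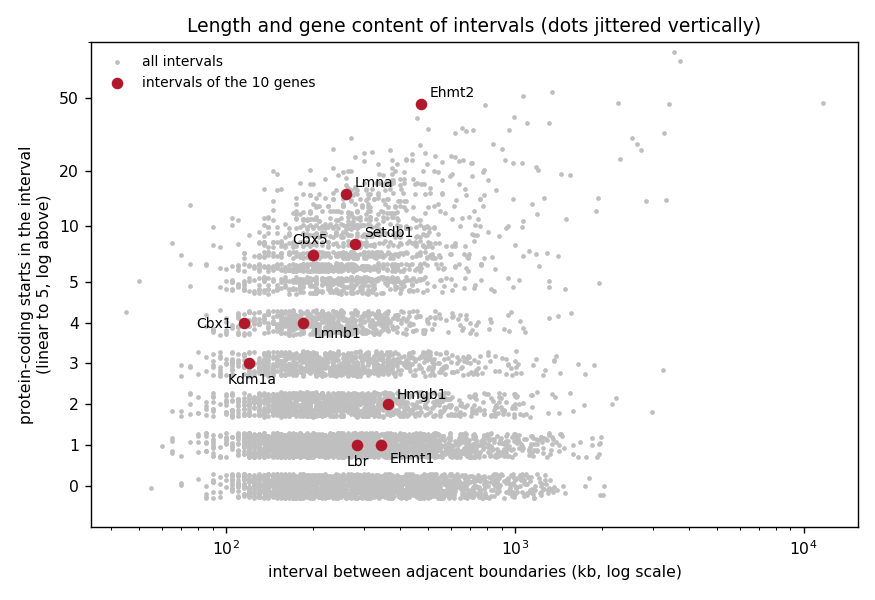
Each grey dot is 1 of the 7415 intervals between adjacent boundaries, with its length in kb on a log axis and the number of protein-coding starts in it on an axis that is linear to 5 and logarithmic above. Red points are the intervals of the 10 genes, for Ehmt1 and Hmgb1 the interval on the side of the gene body, which leaves their own start out of the count. Ehmt2 stands at 46 starts and Lbr at 1.

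Across the 10 genes the intervals were 115.0 to 475.0 kb long, with a median of 270.0 kb, close to the 260.0 kb of all intervals and the 275.0 kb of intervals around coding starts. They held a median of 4.0 coding starts, where all intervals held 2.0 and the interval of a coding start held 6.0. Between 3 and 6 boundaries lay within 500 kb of each start, a median of 4.5 against 4.0 for all coding genes. Between Strong boundaries only, the intervals of Lmna, Lmnb1, Ehmt1, Setdb1 and Cbx5 were as long as before, while those of Lbr, Ehmt2 and Hmgb1 were 640.0, 620.0 and 885.0 kb and those of Cbx1 and Kdm1a 305.0 and 265.0 kb. No 2 of the 10 genes shared an interval. Only Lmna and Setdb1 lie on the same chromosome, and they are farther apart than any of these intervals is long. A coding start on the other strand lay within 1 kb of 3 of 10 starts, those of Ehmt2, Cbx5 and Hmgb1, against 11.0% of all coding starts. For Hmgb1 this again rests on the long transcript, and for Cbx5 on the gene start used, which 1 of its 4 GENCODE transcripts has.

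In all, 22 boundaries flanked or held the 10 starts. Of these, 16 were Strong (72.7%), against 51.8% of the list, and their median GC content was 46.8% against 42.6%. The list also holds boundaries that are not next to a coding start. Neither value was computed for boundaries next to coding starts alone. The boundary nearest to a coding start was Strong for 62.9% of all coding starts. Without the 2 of the 22 that hold a start of the 10 genes, 8 of 20 had another coding start within 10 kb. Among all boundaries this was 27.8%, a share that was also not computed for boundaries next to coding starts alone. The consensus of the insulator protein CTCF was searched on both strands as its core of 12 letters, and a match within 10 kb was found at 4 of the 22, against 23.1% of all boundaries. Neither boundary that holds a gene start had a match, nor did the boundary of score 2.46 near Kdm1a, which says only that these exact letters are not in the window.

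The 4 matches are shown because each lies at a boundary next to one of these genes. They are given with 9 bases on either side, read 5′ to 3′ along the consensus, which is in capitals. They were read from GRCm38.p6 at chr1:181888947-181888976 (+ strand), chr2:25165569-25165598 (+ strand), chr11:96860760-96860789 (- strand) and chr5:148808582-148808611 (+ strand).
Strong boundary upstream of Lbr: agacattagCCAGCAGAGGGCgctgcctaa
Strong boundary upstream of Ehmt1: caggcagagCCAGCAGAGGGCtttccccgc
Weak boundary downstream of Cbx1: cagccctggCCACTAGATGGCagcagcttg
Strong boundary downstream of Hmgb1: tagctgtggCCAGCAGGGGGCagcttttcc

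The matches at Lbr and Cbx1 lay inside the boundary interval itself, that at Hmgb1 1.40 kb outside it and that at Ehmt1 9.41 kb outside it. The sequences at Lbr and Ehmt1 share the same core, while the other 2 have cores of their own.

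A second list held 45 further genes of heterochromatin and the lamina, among them Lmnb2, a further lamin gene, and genes of envelope proteins, methyltransferases, chromodomain readers, cofactors and DNA methyltransferases. Of these, 3 of 45 started within 10 kb of a boundary, against the 12.5% of all coding starts given above, and their median distance was 60.9 kb. This was above the 57.8 kb of all coding genes and the 41.0 kb of the 10 genes. By the nearest RefSeq start the median of the second list was instead below both. The median was then 44.8 kb for 39 genes of the second list, 56.7 kb for all coding genes and 46.6 kb for 9 of the 10 genes. Tor1aip1, a lamina-associated envelope gene, started inside a Strong boundary scored 0.840. Emd, the gene of the envelope protein emerin, and Suv39h1, a methyltransferase gene, lay 9.69 and 9.76 kb from Strong boundaries on X scored 1.42 and 0.564. By role, 2 of 11 lamina and envelope genes and 1 of 7 methyltransferase genes were near, and 0 of 8 chromodomain and other readers, 0 of 8 cofactors, 0 of 6 genes of the demethylase and deacetylase complex, 0 of 3 DNA methyltransferases and 0 of 2 HMG box genes. The farthest were Ezh2 at 270.0 kb, Pphln1 at 172.0 kb and Setdb2 at 164.0 kb. They encode a Polycomb methyltransferase, a subunit of the silencing complex HUSH and a relative of Setdb1. The nearest boundary was Strong for 31 of 45, beside the 62.9% of all coding starts.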

How the data were processed

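In situ Hi-C was measured in 2 replicates of 1 group, whose contact lists the authors combined before they called boundaries on GRCm38, per the series design text and the submitters' processing notes. The deposited score of each boundary was used as given. Its formula is not given in the sources used here, nor are the caller, the aligner and the depth. Boundary ends were checked against chromosome lengths of GRCm38.p6. Gene starts were the 5′ ends of GENCODE M21 genes, and 211 coding genes outside the first to last boundary of their chromosome were left out. Near meant within 10 kb of the interval. RefSeq promoters of GRCm38.p6 matched 9 members by symbol. Intervals were the gaps between adjacent boundaries. No test was run, and no p-value is given, since the list holds 1 pooled value per boundary. Members and lists were chosen with earlier results of these data known. The named genes were all members, their nearest coding starts on each side, coding genes overlapped by or starting within 10 kb of their boundaries, all starts of intervals with up to 6, and the second list's near and 3 farthest genes. Distances and motif searches were tested on simulated positions. Python 3.11.15, numpy 2.4.6, pandas 2.3.3 and matplotlib 3.10.9 were used. Alternatives were other distances, classes, starts, backgrounds and motifs.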

Additional observations from a re-analysis of the deposited data

How the results depend on the processing

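The count of members near a boundary, 2 of 10, was the same for starts inside the boundary, within 25 kb, with any transcript start, with coding transcript starts and beside all 53239 annotated genes, of which 10.1% were near. It was 7 within 50 kb, 1 with Strong boundaries only, 1 with scores of at least 1 (background 3.63%) and 1 with RefSeq starts, an alternative chosen after seeing the data. Hmgb1 is the gene lost in these last 3. The median distance ran from 41.0 to 46.6 kb over all alternatives. The median interval was 292.5 kb with Strong boundaries only, against 270.0 kb. The median number of starts in an interval was 9.0 with all annotated genes, where all intervals then held 5.0. Boundaries overlapped 2 gene bodies with Strong boundaries only (9.44% of all coding genes), against 3. In the second list, 1 of 45 genes was near for starts inside the boundary (background 3.29%), 3 with Strong boundaries only (7.94%), 7 within 25 kb (24.8%), 7 with any transcript start (16.7%) and 6 of 39 with RefSeq starts (12.8%). CTCF matches were found at 10 of 22 boundaries within 25 kb (all boundaries 38.1%) and at 20 with a looser core (90.2%). No paired analysis was possible because there is 1 group and the list pools both replicates, so neither replicate could be left out. The depth behind each boundary is unknown.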

Other observations

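In the second list, 3 genes had a RefSeq start nearer to a boundary than their GENCODE gene start and came within 10 kb by it, and they were chosen after their values were seen. Phf21a, a partner of the demethylase complex of Kdm1a, lay 86.9 kb from a boundary by its gene start and 0.483 kb by its nearest RefSeq start. The chromodomain gene Cbx7 lay 26.1 kb away by the first and 7.36 kb by the second, and the lamin gene Lmnb2 18.2 and 6.41 kb.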
